A study of Mus musculus with 6 samples.

Results

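The 10 genes described here encode the inhibitors of cyclin-dependent kinases (CDKs) and the pocket proteins of the mouse. They were taken by name from a table of 40166 genes: the Cip/Kip inhibitors *Cdkn1a*, *Cdkn1b* and *Cdkn1c*, the INK4 inhibitors *Cdkn2a*, *Cdkn2b*, *Cdkn2c* and *Cdkn2d*, and the pocket protein genes *Rb1*, *Rbl1* and *Rbl2*. RNA was sequenced in bulk from 6 subcutaneous YUMM3.3 melanomas grown in C57BL/6 mice, all taken on day 17 of treatment. YUMM3.3 cells are a transplantable mouse melanoma line with mutant *Braf*, made without functional *Cdkn2a*, and both groups carry these alleles. The 3 vehicle tumors, numbered 7, 8 and 9, came from mice given water (0 mg/kg of drug), and the 3 RGS tumors, numbered 10, 11 and 12, from mice given Rigosertib (RGS), a RAS mimetic, at 300 mg/kg, both by oral gavage several days a week. The study injected young adult mice of either sex. The sex of the mice behind these 6 tumors, and the part of *Cdkn2a* removed in the line, are not given in the sources used here. All tumors derive from 1 injected line, so they do not represent separate melanomas, and p-values measure only the spread between these tumors.

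CDKs drive the cell cycle when bound by cyclins. The INK4 proteins bind CDK4 and CDK6 and keep cyclin D away from them, while the Cip/Kip proteins bind whole cyclin-CDK complexes, in particular those of CDK2. Active CDKs phosphorylate the pocket proteins RB, p107 and p130, which otherwise hold E2F transcription factors and repress genes of DNA replication and mitosis. In melanoma the INK4 locus is among the most frequently lost tumor suppressor loci, and YUMM3.3 models that loss.

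With RGS, 1 gene of the set rose and 3 fell. *Cdkn2c* rose 1.52-fold, and *Rbl1*, *Cdkn1b* and *Rb1* fell 3.57-fold, 2.96-fold and 1.87-fold. The 5 other tested genes did not pass the threshold, among them *Cdkn1a*, the most abundant of the set, and *Cdkn2a* had no count in any tumor. The 4 genes called are to be read against 32.8% of all 15355 tested genes that passed the same test (edgeR's quasi-likelihood test, Benjamini-Hochberg adjusted p under 0.05), 16.3% with higher and 16.5% with lower counts under RGS. The median log2 fold change of the 9 tested genes was -0.34, beside -0.048 over all tested genes. In 5 genes, the 4 called ones and *Rbl2*, the values of the groups did not overlap, which was also the case for 45.8% of all tested genes.

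**Figure D1:**
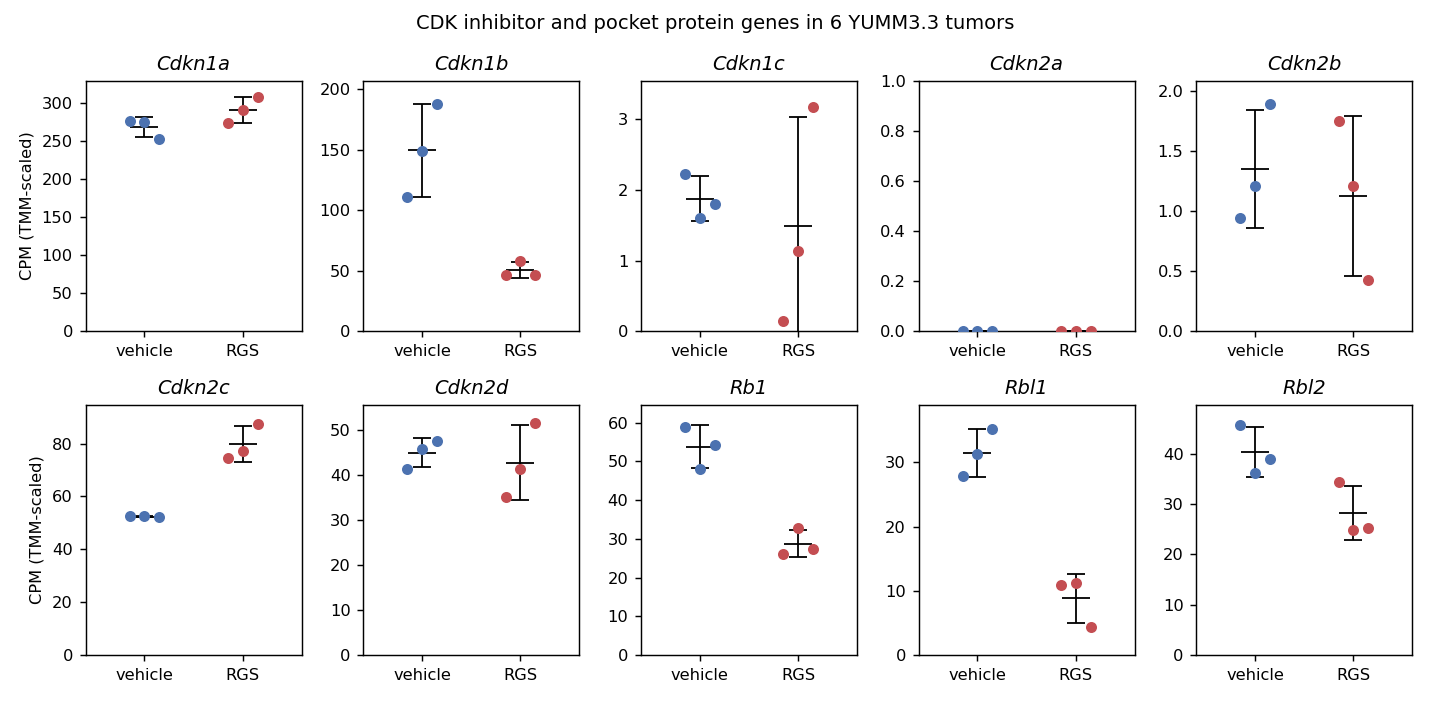
Counts scaled to a common library total (CPM, linear axis from 0, a scale of its own in each panel) of the 10 genes in 3 vehicle (blue) and 3 RGS (red) tumors, with the mean (long line) and SD (bars). The lower SD bar of *Cdkn1c* with RGS runs below 0 and is cut. *Cdkn1b*, *Rb1*, *Rbl1* and *Rbl2* lie lower and *Cdkn2c* higher in all 3 RGS tumors than in any vehicle tumor, and *Cdkn2a* is at 0 throughout.

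The libraries held between 13837932 and 32555494 counts, the 3 deepest being the vehicle libraries, and so sequencing depth cannot be told apart from treatment. Mitochondrial genes took 2.13% to 3.20% of the counts with vehicle and 5.60% to 8.22% with RGS. The tissue label was only in part borne out by markers. Of 8 melanocyte genes, *Mlana*, *Tyr* and *Dct* had no count in any tumor and 6 were at or below 1 CPM in all, and the summed level, mostly *Mitf*, was 4.99 to 7.73 CPM with vehicle and 4.53 to 11.2 CPM with RGS. Of 8 T and NK cell genes 6 were at 0 in all tumors, and *Adgre1*, a defining macrophage gene, was at 0 too. Fibroblast genes (7, mostly *Col1a2*) summed to 404 to 601 CPM with vehicle and 294 to 320 CPM with RGS. Endothelial genes (5) summed to 0.945 to 1.20 and 3.24 to 11.2 CPM, and keratinocyte genes (6) to 0.428 to 1.72 and 6.72 to 21.3 CPM. The endothelial rise was mostly *Cdh5*, while *Pecam1* averaged higher with RGS, *Tek* and *Kdr* lower, and *Emcn* was at 0 in all tumors. The keratinocyte sum was mostly *Ivl* with RGS, but *Ivl* had 0 counts in each vehicle tumor, where the sum was mostly *Krt10*. Within the fibroblast list *Dcn* rose, from 1.14 ± 0.495 to 10.7 ± 4.61 CPM (SD, n = 3 each). Macrophage genes (7, nearly all *Cd68*) summed to 58.8 to 64.7 and 65.4 to 88.4 CPM. Of these genes 6 were at or below 1 CPM in all tumors, and *Cd68* did not pass the threshold (adjusted p = 0.293, edgeR). T and NK cell genes summed to at most 0.602 and to 0.611 to 1.42 CPM. Skeletal muscle genes (5, mostly *Tnnt3*) summed to 2.88 to 4.42 and 1.36 to 2.46 CPM. *Trac*, a T cell receptor gene, had 0 counts in each vehicle tumor and 30, 16 and 10 counts in RGS tumors 10, 11 and 12. The sums of the fibroblast, endothelial, keratinocyte, macrophage, T and NK cell and skeletal muscle lists did not overlap between the groups. Those of the melanocyte, B cell and adipocyte lists did. B cell genes summed to 0 to 0.314 and 0 to 0.473 CPM, adipocyte genes to 6.85 to 11.9 and 6.29 to 14.8 CPM. The highest vehicle T and NK cell sum was *Cd4* in tumor 9 alone (14 counts), and the RGS sums were *Trac* alone. Over all tested genes, 45.8% had groups that did not overlap. The part of these lists in the results below was not tested. In bulk tumors, fewer cells of a type and less RNA per cell cannot be told apart.

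*Cdkn1a* encodes p21, the Cip/Kip inhibitor that p53 induces, and lies on chromosome 17 of GRCm38 (29090976 to 29100727). Its values were 276.5, 274.9 and 252.7 CPM (counts scaled to a common library total) in vehicle tumors 7, 8 and 9 and 273.5, 291.0 and 307.4 CPM in RGS tumors 10, 11 and 12. The groups overlapped, and the difference was within the spread between tumors. edgeR's fit gave a log2 fold change of 0.12 (standard error 0.14, 95% interval -0.19 to 0.42, adjusted p = 0.577 from edgeR's quasi-likelihood test). Scaling by library size only, in place of TMM factors, gave -0.027. TPM (counts scaled by gene length and library total) carry no TMM factors either, and there the direction also differed. They were 249 ± 38.0 TPM (SD, n = 3) with vehicle and 236 ± 4.52 TPM with RGS.

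Among 8902 tested genes at a mean of at least 10 CPM, the 5 whose centred log2 CPM profile over the 6 tumors lay closest to that of *Cdkn1a* were *Bub3*, *Ftsj3*, *Dcaf8*, *Hsp90ab1* and *Heatr1*. Their distances to it were between 0.0703 and 0.103 log2 units, and none of them passed the threshold. *Bub3* acts at the spindle checkpoint, *Hsp90ab1* is a chaperone and *Ftsj3* and *Heatr1* act in ribosome production. These profiles are all nearly flat, so the likeness is one of small variation.

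*Cdkn1b* encodes p27, which holds CDK2 complexes inactive in resting cells, and lies on chromosome 6 (134920401 to 134925513). It measured 111, 149 and 188 CPM in vehicle tumors 7, 8 and 9. In RGS tumors 10, 11 and 12 it measured 46.6, 58.1 and 46.8 CPM. The lowest vehicle tumor was well above the highest RGS tumor. *Cdkn1b* fell by 1.57 on the log2 scale (standard error 0.19, 95% interval -1.97 to -1.16, adjusted p = 5.67e-06 from edgeR's quasi-likelihood test). The vehicle tumors differed among themselves by 1.69-fold, more than in any other gene of the set above 10 CPM in both groups.

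*Cdkn1c* encodes p57, an imprinted Cip/Kip inhibitor expressed mainly from the maternal allele. Its level was low, with 78, 45 and 42 counts in vehicle tumors 7, 8 and 9. RGS tumors 10, 11 and 12 had 3, 15 and 52 counts. The RGS tumors spanned a 22.4-fold range in CPM and enclosed all vehicle values. The log2 fold change of -0.34 had a 95% interval from -2.30 to 1.61 (adjusted p = 0.812, edgeR), which holds both large increases and large decreases. Its exons also share 625 bases, 30.7% of their length, with *Gm44732* on the opposite strand.

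The promoter of *Cdkn1b* is shown as that of a gene that fell, from RefSeq on GRCm38.p6 (chr6:134920151-134920450, plus strand), 250 bases before and 50 bases from the start site onward. Capitals mark the GC box GGGCGG, the binding word of SP1-type factors.
*Cdkn1b*: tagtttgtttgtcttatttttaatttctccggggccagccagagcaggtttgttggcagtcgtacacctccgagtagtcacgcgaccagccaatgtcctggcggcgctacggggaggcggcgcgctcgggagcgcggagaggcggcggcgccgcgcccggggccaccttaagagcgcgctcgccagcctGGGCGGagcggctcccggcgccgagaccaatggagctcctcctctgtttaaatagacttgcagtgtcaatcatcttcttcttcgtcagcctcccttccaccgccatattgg
The GC box lies 61 to 56 bases before the start site. Promoters were found for 8 of the 10 genes (11 start sites), not for *Cdkn1c* and *Rb1*. Besides the GC box they were searched on both strands for 4 E2F words, TTTCCCGC, TTTCGCGC, TTTGCCGC and TTTGGCGC, and for the CHR word TTTGAA, which is bound by the MuvB complex. The reverse of TTTCCCGC or TTTGCCGC can overlap a GC box, but no such overlap occurred in these promoters. Of all 32851 promoters of the same length, 35.7% hold a GC box, 17.9% the CHR word and 2.27% an E2F word. Neither an E2F word nor the CHR word is in the *Cdkn1b* window, which says only that these letters are not there.

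*Cdkn2a*, which encodes the INK4 inhibitor p16 and, from another first exon, the p53 activator ARF, had 0 counts in all 6 tumors. These are 0 of 135224743 counts in all, and 3 counts, the limit that a count of 0 allows, correspond to between 0.0856 and 0.226 CPM or between 0.267 and 0.558 TPM depending on the tumor. These limits cover counting error only, because no molecular identifiers were used and reads may be copies of 1 molecule. The gene lies on chromosome 4 (89274471 to 89294653, minus strand) and its 2 coding transcripts have 3 exons each. They differ in the first exon, at 89281986 to 89282192 in one and 89294334 to 89294653 in the other, and share the coding second exon at 89276645 to 89276985. No other annotated gene overlaps it. No residual count from host cells, which carry the gene intact, was seen, and the reason was not tested. A listed 0 alone is not evidence of absence in this table: *Kif11*, a spindle motor of dividing cells named here after its values were seen, was also listed at 0 in all 6 tumors.

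Counts were present on both sides of *Cdkn2a*. *Gm12606*, a long noncoding RNA gene that ends 1067 bases away, had 512, 539 and 492 counts in vehicle tumors 7, 8 and 9 and 482, 339 and 485 counts in RGS tumors 10, 11 and 12. *Mtap*, a methionine salvage gene 93389 bases away, had 8562 to 21725 counts and a log2 fold change of 0.012 (adjusted p = 0.959, edgeR). On the other side, *Dmrta1* at 384782 bases had 26 to 191 counts and a log2 fold change of -0.92 (adjusted p = 0.136, edgeR). The 7 other annotated genes of this interval, noncoding genes and pseudogenes, had at most 22 counts in a tumor, and *Gm12609* and *Gm27580* among them had none in any.

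*Cdkn2b* encodes p15, the INK4 inhibitor that TGF-beta induces, and its end nearest to *Cdkn2a* lies 11645 bases away. It had 33, 34 and 44 counts in vehicle tumors 7, 8 and 9 and 37, 16 and 7 counts in RGS tumors 10, 11 and 12. In CPM the groups overlapped, with RGS tumors 10 and 11 (1.75 and 1.20 CPM) within the vehicle range (0.941 to 1.89 CPM). The log2 fold change was -0.25 (95% interval -2.25 to 1.76, adjusted p = 0.868, edgeR). Leaving out vehicle tumor 9 or RGS tumor 12 turned it to 0.074 and 0.12. The gene was thus present at a low level beside a *Cdkn2a* at 0.

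*Cdkn2c* encodes p18 and lies on chromosome 4 (109660876 to 109667189). It was the one gene of the set that rose. It measured 52.5, 52.7 and 52.0 CPM in vehicle tumors 7, 8 and 9 and 74.5, 77.2 and 87.6 CPM in RGS tumors 10, 11 and 12. The vehicle tumors were almost equal, and all RGS tumors were above them. The log2 fold change was 0.61 (standard error 0.16, 95% interval 0.26 to 0.95, adjusted p = 0.00773 from edgeR's quasi-likelihood test). Without RGS tumor 12, the highest, it was 0.51 and no longer passed the threshold (adjusted p = 0.0513, edgeR).

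*Cdkn2d* encodes p19, the INK4 inhibitor on chromosome 9 (21288410 to 21291407). It measured 41.4, 45.8 and 47.7 CPM in vehicle tumors 7, 8 and 9 and 35.2, 41.4 and 51.6 CPM in RGS tumors 10, 11 and 12. The RGS tumors lay on both sides of the vehicle range. The log2 fold change of -0.073 (95% interval -0.47 to 0.32, adjusted p = 0.805, edgeR) turned to 0.048 without RGS tumor 10.

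*Cdkn2c* has a pair of start sites in RefSeq, shown because they differ in the words they hold (chr4:109666707-109667006 and chr4:109665323-109665622, both minus strand, GRCm38.p6, GC boxes in capitals).
*Cdkn2c* first start: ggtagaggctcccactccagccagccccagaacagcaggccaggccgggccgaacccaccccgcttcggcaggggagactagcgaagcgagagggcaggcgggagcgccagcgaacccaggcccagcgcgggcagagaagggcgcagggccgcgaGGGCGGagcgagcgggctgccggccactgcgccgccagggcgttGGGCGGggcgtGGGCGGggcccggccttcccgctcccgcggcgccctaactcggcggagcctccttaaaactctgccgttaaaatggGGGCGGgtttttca
*Cdkn2c* second start: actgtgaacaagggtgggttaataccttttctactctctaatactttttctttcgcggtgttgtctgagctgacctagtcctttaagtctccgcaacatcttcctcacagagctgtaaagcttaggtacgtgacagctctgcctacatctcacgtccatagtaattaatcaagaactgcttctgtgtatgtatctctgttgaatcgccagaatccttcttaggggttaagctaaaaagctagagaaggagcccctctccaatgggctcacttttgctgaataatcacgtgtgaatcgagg
The first window holds 4 GC boxes and the second none, and neither holds an E2F or CHR word. Counts per gene do not say which start the reads came from. *Cdkn2d* has 5 GC boxes in its window, while *Cdkn2b* has 1 GC box and 1 CHR word.

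*Rb1* encodes RB, the pocket protein that binds the activating E2F factors, and lies on chromosome 14 (73183673 to 73325822). It measured 59.0, 48.0 and 54.4 CPM in vehicle tumors 7, 8 and 9 and 26.2, 32.8 and 27.4 CPM in RGS tumors 10, 11 and 12. All RGS tumors were below all vehicle tumors. *Rb1* fell by 0.90 on the log2 scale (standard error 0.19, 95% interval -1.29 to -0.51, adjusted p = 0.00105 from edgeR's quasi-likelihood test). On the opposite strand *Lpar6* shares 408 and *Rcbtb2* 488 of its exon bases. *Lpar6* had a log2 fold change of 0.41 (adjusted p = 0.116, edgeR) and *Rcbtb2* fell by 0.58 (adjusted p = 0.0346, edgeR), and the strand setting of the count is not given in the sources used here.

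*Rbl1* encodes p107, the pocket protein most abundant in cycling cells, and lies on chromosome 2 (157145893 to 157204534). It measured 27.9, 31.3 and 35.2 CPM in vehicle tumors 7, 8 and 9 and 10.9, 11.1 and 4.403 CPM in RGS tumors 10, 11 and 12. All RGS tumors were far below the vehicle range, tumor 12 most of all. *Rbl1* fell by 1.84 on the log2 scale (standard error 0.30, 95% interval -2.46 to -1.21, adjusted p = 1.19e-04 from edgeR's quasi-likelihood test), the largest fitted change among the 9 tested genes. No gene of the table shares exon bases with it.

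Its promoter is shown because, of the 3 called genes with a promoter in the table (*Cdkn1b*, *Cdkn2c* and *Rbl1*), it is the one that holds an E2F word (chr2:157204485-157204784, minus strand, RefSeq on GRCm38.p6). Capitals mark this word, TTTCGCGC, 18 to 11 bases before the start site counted from 0, and a GC box on the opposite strand (CCGCCC as printed) at 226 to 221 bases before it.
*Rbl1*: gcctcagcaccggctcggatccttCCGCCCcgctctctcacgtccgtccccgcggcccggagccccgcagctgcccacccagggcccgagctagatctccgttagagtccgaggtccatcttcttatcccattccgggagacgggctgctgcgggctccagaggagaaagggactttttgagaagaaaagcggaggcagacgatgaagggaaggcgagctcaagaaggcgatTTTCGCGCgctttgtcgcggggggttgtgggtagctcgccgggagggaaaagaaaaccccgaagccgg
Of the 11 windows of the set, an E2F word is present only in this one and in the first start of *Cdkn2a*, 99 to 92 bases before its start site. A match is a description of the sequence and not a sign of binding.

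*Rbl2* encodes p130, the pocket protein of resting cells and of the repressive DREAM complex, and lies on chromosome 8 (91070057 to 91123844). It measured 45.8, 36.2 and 39.0 CPM in vehicle tumors 7, 8 and 9 and 34.4, 24.8 and 25.3 CPM in RGS tumors 10, 11 and 12. The groups did not overlap, but RGS tumor 10 came close to vehicle tumor 8. The log2 fold change of -0.52 (standard error 0.20, 95% interval -0.94 to -0.089) did not pass the threshold after adjustment over all genes (adjusted p = 0.0595 from edgeR's quasi-likelihood test). It passed with upper-quartile factors (-0.55), library size only (-0.65), counts thinned to the smallest library (-0.56), an offset for gene length (-0.60) and without RGS tumor 10 (-0.69). *Aktip* on the opposite strand shares 693 of its exon bases and fell by 1.0 on the log2 scale (adjusted p = 8.03e-04, edgeR). *Gm45464*, also opposite, shares 892 and had at most 4 counts.

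**Figure D2:**
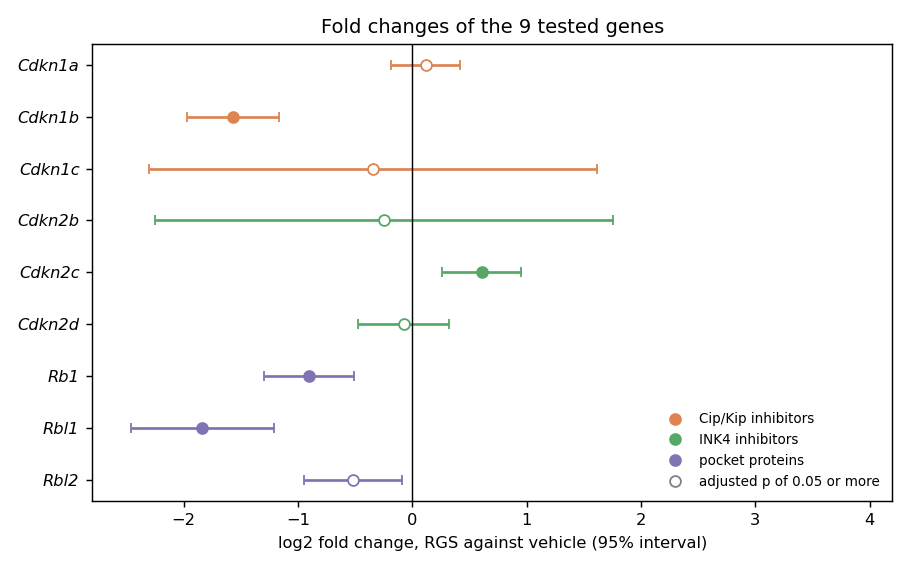
Log2 fold change, RGS against vehicle, with its 95% interval from the edgeR fit for the 9 tested genes, coloured by family. Filled points passed an adjusted p of 0.05. The intervals of *Cdkn1c* and *Cdkn2b*, the tested genes with the fewest counts, span more than 3 log2 units. Those of *Cdkn1b*, *Rb1*, *Rbl1* and *Rbl2* lie wholly below 0, though *Rbl2* did not pass the threshold after adjustment.

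Levels of different genes were compared per length, in TPM. In vehicle tumors *Cdkn1a* was highest with 249 ± 38.0 TPM (SD, n = 3). Next came *Cdkn1b* (106 ± 16.1 TPM) and *Cdkn2d* (93.5 ± 3.88 TPM), whose ranges overlapped, then *Cdkn2c* (64.2 ± 7.26 TPM) and *Rb1* (29.5 ± 5.53 TPM). *Rbl2* (17.7 ± 3.92 TPM) and *Rbl1* (17.1 ± 0.149 TPM) did not differ beyond their spread, nor did *Cdkn2b* (3.11 ± 0.794 TPM) and *Cdkn1c* (3.06 ± 0.814 TPM). In RGS tumors *Cdkn1a* was again highest (236 ± 4.52 TPM). *Cdkn2c* (85.4 ± 2.0 TPM) and *Cdkn2d* (77.7 ± 9.03 TPM) then overlapped, both above *Cdkn1b* (32.0 ± 4.77 TPM). *Rb1* (13.8 ± 1.84 TPM) overlapped *Rbl2* (10.9 ± 2.85 TPM), and *Rbl1* (4.33 ± 2.06 TPM) overlapped *Cdkn2b* (2.41 ± 1.55 TPM), whose range also met that of *Cdkn1c* (1.99 ± 2.0 TPM). By its mean *Cdkn1b* stood at rank 2 of the set with vehicle and at rank 4 with RGS.

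TPM carry no TMM factors, which were 1.02 to 1.08 with vehicle and 0.92 to 0.98 with RGS. Differences of summed TPM between the groups therefore depend on the scaling, while shares within a sum do not. The summed TPM of the pocket protein genes was 64.3 ± 9.36 with vehicle and 29.0 ± 5.34 with RGS (SD, n = 3 each), with no overlap between the groups. Within that sum the share of *Rbl1* was 22.7% to 29.3% with vehicle and 8.50% to 17.5% with RGS. The share of *Rbl2* was 25.7% to 29.5% and 31.0% to 42.4%, while that of *Rb1* overlapped at 44.4% to 47.8% and 40.6% to 52.7%. The Cip/Kip sum was 358 ± 22.9 TPM with vehicle and 270 ± 6.84 TPM with RGS, and *Cdkn1a* made up 69.3 ± 6.28% of it with vehicle and 87.4 ± 1.20% with RGS. In TPM the INK4 sum did not differ beyond the spread between tumors (161 ± 10.2 and 165 ± 8.35 TPM), and no TMM-scaled sum was made. *Cdkn2c* made up 39.8 ± 2.01% of the INK4 sum with vehicle and 51.7 ± 2.21% with RGS.

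**Figure D3:**
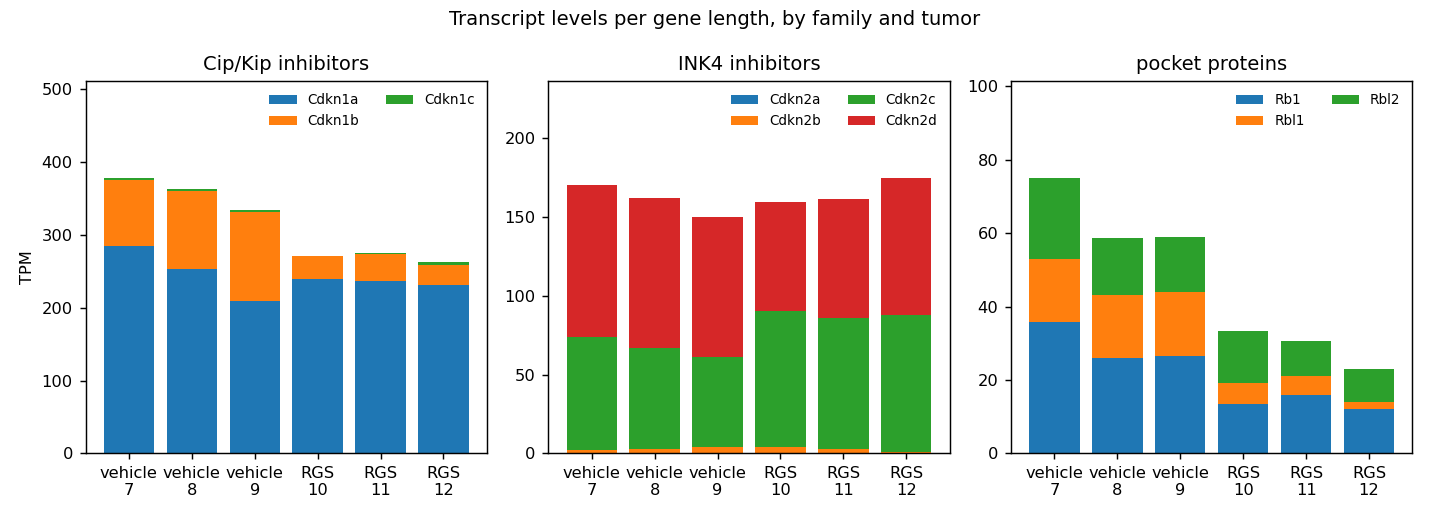
TPM, without TMM factors, of each gene stacked by family in each of the 6 tumors, linear axes from 0 with a scale of their own. The pocket protein stack is 58.8 to 75.1 TPM with vehicle and 23.0 to 33.3 TPM with RGS, while the INK4 stack is 150 to 175 TPM across all tumors.

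A ratio of genes within a tumor does not depend on library size. The log2 ratio of *Rbl1* to *Rbl2* TPM was -0.38, 0.13 and 0.19 in vehicle tumors 7, 8 and 9 and -1.32, -0.82 and -2.19 in RGS tumors 10, 11 and 12. The groups did not overlap, and the difference of means was -1.42 (exact permutation test, two-sided p = 0.1, the smallest that 20 groupings of 3 against 3 allow). The log2 ratio of *Cdkn1a* to *Mdm2* TPM, both p53 target genes, was -0.16, -0.38 and -0.51 in vehicle tumors and 0.81, 0.72 and 1.13 in RGS tumors. It was higher in 3 of 3 RGS tumors, by 1.24 (same exact permutation test, p = 0.1, again the smallest it allows). The study had already reported lower *Mdm2* with RGS in these tumors, and *Mdm2* fell by 1.12 on the log2 scale. The *Cdkn1a* to *Mdm2* ratio largely restates that fall and is not independent evidence. With 3 tumors per group this exact test cannot place either ratio under a p of 0.05.

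**Figure D4:**
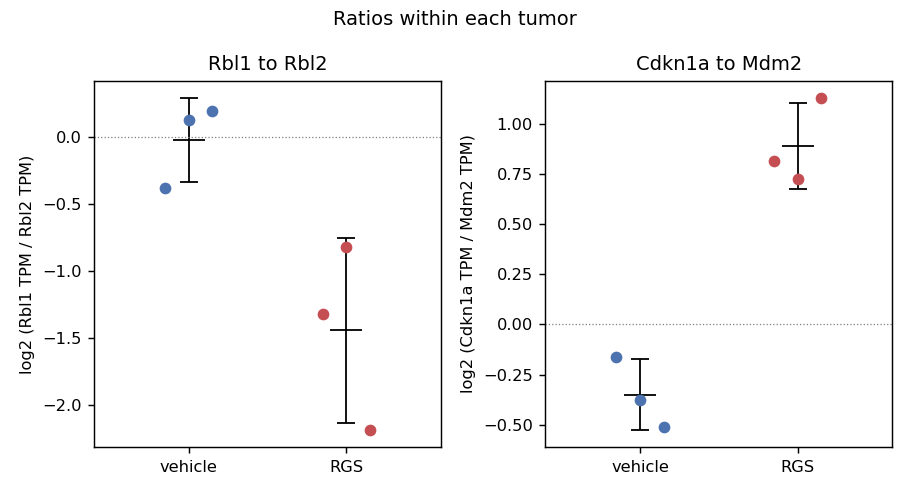
Log2 ratio of TPM within each tumor for *Rbl1* to *Rbl2* (left) and *Cdkn1a* to *Mdm2* (right), with the mean (long line) and SD (bars) of 3 tumors per group. The *Rbl1* ratio is lower in all 3 RGS tumors and the *Cdkn1a* ratio higher.

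The cyclins and CDKs on which the inhibitors act were lower where they changed. Of 11 tested genes 6 fell and none rose, with a median log2 fold change of -0.90 beside -0.048 over all tested genes. Counts in this and the following lists are to be read against 16.3% of all tested genes that rose and 16.5% that fell. The CDK2 partner *Ccne2* fell by 3.03 on the log2 scale, from 34.7 ± 8.53 to 4.27 ± 0.679 CPM (SD, n = 3 each). The mitotic cyclin gene *Ccnb1* fell by 1.96, *Ccna2* by 1.54 and the kinase gene *Cdk2* by 1.11. *Ccne2* shares 609 exon bases with *Ints8* and *Ccna2* 510 with *Exosc9*, on opposite strands. *Cdk4*, the kinase the INK4 proteins bind, averaged 299 ± 50.5 CPM in vehicle and 227 ± 24.9 CPM in RGS tumors and did not pass the threshold (log2 fold change -0.40, adjusted p = 0.0678, edgeR), nor did *Cdk6* (-0.46, adjusted p = 0.0845, edgeR).

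Pocket proteins bind part of the E2F factors together with their DP partners. Among all 10 of these genes 1 rose and 3 fell (median log2 fold change -0.37), but without vehicle tumor 8 only 1 fell and with limma voom 2 rose. *E2f5*, a repressive partner of p130, rose by 0.75, from 29.2 ± 3.305 to 49.0 ± 2.13 CPM. *E2f7*, an atypical repressor that binds no pocket protein, fell by 1.37, *E2f6* by 0.55 and *Tfdp2* by 0.58. The call of *E2f7* was lost without vehicle tumor 9 and that of *E2f6* without vehicle tumor 8, and *Tfdp2* lost its call in 8 of 17 alternative fits. *E2f1* (log2 fold change 0.063, adjusted p = 0.809, edgeR) and *E2f4* (-0.062, adjusted p = 0.809, edgeR), the main partners of RB and p130, were within the spread between tumors.

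The MuvB core joins p130 in DREAM in resting cells and B-MYB and FOXM1 in dividing ones. Of the core and these partners, 5 of 7 genes fell, 3 of the 5 core genes and both partners, and none rose (median log2 fold change -1.15, 1 higher with limma voom). *Lin54*, the subunit that reads the CHR word, fell by 2.03 on the log2 scale, from 37.2 ± 1.57 to 9.07 ± 4.21 CPM. *Foxm1* fell by 1.63, *Lin9* by 1.16 and *Mybl2*, which lost its call without vehicle tumor 8, by 1.15. *Lin54* and *Lin9* belong to both complexes, *Foxm1* and *Mybl2* to the activating one.

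Genes under E2F and MuvB control were lower as well. Of 18 tested E2F-regulated replication genes 13 fell and none rose, with a median log2 fold change of -1.05. The primase gene *Prim1* fell by 1.76, the polymerase gene *Pola1* by 1.56, the helicase gene *Mcm6* by 1.52 and the ribonucleotide reductase gene *Rrm2* by 1.37. Of 14 tested mitotic genes 12 fell and none rose (median -1.23). Here the checkpoint kinase gene *Bub1* fell by 2.81, from 50.1 ± 4.23 to 7.14 ± 0.703 CPM, *Ccnb1* by 1.96, *Aurkb* by 1.74 and *Ube2c* by 1.64. These lists overlap in part with the cyclin list, in *Ccnb1* and *Cdk1*.

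**Figure D5:**
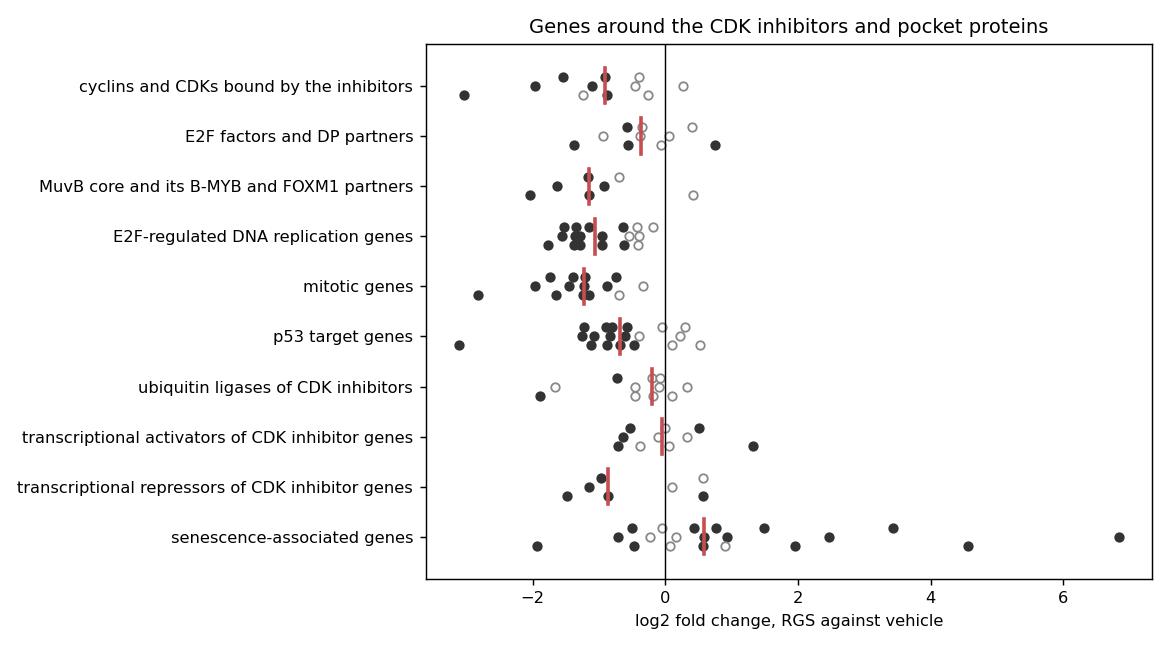
Log2 fold change, RGS against vehicle, of each tested gene in 10 lists around the CDK inhibitors and pocket proteins. Black points passed an adjusted p of 0.05, open points did not, and red lines are list medians, from -1.23 for mitotic genes to 0.58 for senescence-associated genes.

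Most of the other p53 targets were lower. Of 19 tested genes, without *Cdkn1a*, 13 fell and none rose (median log2 fold change -0.69), while 1 rose without vehicle tumor 7 and with limma voom. The death receptor gene *Fas* fell by 3.11, from 13.6 ± 7.07 to 1.57 ± 0.571 CPM, the reductase subunit gene *Rrm2b* by 1.26, *Ccng1* by 1.23 and *Mdm2*, which encodes the ligase of p53, by 1.12. At least *Mdm2* belongs to the p53 group that the study chose on the same tumors. Which other genes of the list do was not checked, so its direction is not independent evidence. *Trp53* itself rose by 0.51, from 111 ± 13.5 to 159 ± 6.86 CPM, a call that was lost with library size only and without vehicle tumor 8, vehicle tumor 9 or RGS tumor 12.

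*Trp53* is also counted among the transcriptional activators of CDK inhibitor genes, where 2 of 10 rose and 3 fell. The median log2 fold change of -0.051 was close to that of all tested genes (-0.048), of which 16.3% were higher and 16.5% lower. Without vehicle tumor 8, 1 activator rose and 1 fell, and with library size only, without vehicle tumor 9 or without RGS tumor 12, 1 rose. *Smad3*, which carries the TGF-beta signal to *Cdkn2b* and *Cdkn1a*, rose by 1.32, from 60.6 ± 14.0 to 152 ± 24.6 CPM. The partner genes *Smad2* (fell by 0.72) and *Smad4* (fell by 0.54) and the p21 activator *Klf4* (fell by 0.64) were lower, the first without a call when vehicle tumor 8 was left out and the second without one when vehicle tumor 8, RGS tumor 11 or RGS tumor 12 was. Among the repressors of these genes, 4 of 7 fell and 1 rose (median -0.86). The Polycomb genes *Cbx7*, *Ezh2* and *Bmi1*, whose products silence the INK4 locus, fell by 1.48, 0.97 and 0.86, and *Myc*, which represses *Cdkn2b* and *Cdkn1a*, fell by 1.15. *Id1* rose by 0.57. Its log2 fold change was between 0.43 and 0.76 in all alternative fits, but it did not pass the threshold with library size only or without RGS tumor 12. *Cbx7* shares 100 exon bases with *Apobec3* on the opposite strand.

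Of 11 tested genes of the ubiquitin ligases that degrade p27, p21 and p57, 2 fell and none rose (median log2 fold change -0.19), a share of lower genes close to the 16.5% of all tested genes. Without vehicle tumor 7, 4 of them fell, as they did with limma voom, where 1 also rose. *Dtl*, the receptor that marks p21 for CUL4 ligases in S phase, fell by 1.89, from 22.9 ± 2.27 to 6.13 ± 2.67 CPM. *Cks1b*, the cofactor that p27 needs for its degradation, fell by 0.72. *Skp2*, the receptor for p27, averaged 1.55 ± 0.704 CPM in vehicle and 0.499 ± 0.745 CPM in RGS tumors and did not pass the threshold (adjusted p = 0.339, edgeR).

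In the list of senescence-associated genes, set beside the inhibitors because p16 and p21 hold senescent cells in arrest, 11 of 20 tested genes rose and 4 fell (median log2 fold change 0.58). Of all tested genes 16.3% were higher and 16.5% lower, the latter close to the share of lower genes in the list. Only 7 rose without vehicle tumor 8, RGS tumor 11 or RGS tumor 12. The count of lower genes was 1 without vehicle tumor 8 and 2 without vehicle tumor 9, RGS tumor 10 or RGS tumor 11. The protease genes *Mmp10* and *Mmp3* rose by 6.85 and 3.43 and the growth factor binding gene *Igfbp3* by 2.46, from 243 ± 36.3 to 1341 ± 24.7 CPM. *Il1a* had 2, 1 and 2 counts in vehicle tumors and 14, 26 and 32 counts in RGS tumors and passed the threshold, but not when vehicle tumor 7, vehicle tumor 8, RGS tumor 11 or RGS tumor 12 was left out. The chromatin genes *Hmgb2* and *Hmgb1* fell by 1.93 and 0.46, the lamin gene *Lmnb1* by 0.71 and the chemokine gene *Ccl2* by 0.50. Of these, *Hmgb2* kept its call in every alternative fit, while the other 3 each lost it in at least 2 of the 6 fits without 1 tumor.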

How the data were processed

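Bulk RNA from 3 vehicle and 3 RGS tumors was sequenced as paired reads of 150 bases. The table deposited by the authors holds raw read counts for each gene, with its position and length, and the submitters' processing notes name cutadapt 1.18, FastQC 0.11.7, STAR 2.7.1a, featureCounts 1.6.4 and mm10. All 38927 gene IDs shared with GENCODE M21 have the same positions there. The strand setting and the handling of reads that fall on several genes, which can move counts between overlapping genes, are not given in the sources used here. Columns were matched to samples by tumor number and treatment.

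From these counts, genes with a median of at least 5 counts in at least 1 group were tested in R 4.3.3 with edgeR 4.0.16 (TMM factors, quasi-likelihood F test, Benjamini-Hochberg over 15355 genes, adjusted p under 0.05). CPM are TMM-scaled, TPM use the deposited gene lengths without TMM factors, and errors are SDs over 3 tumors. Replicate libraries were distinct (chi-square at least 19.6 times that of pure sampling), and all were kept. The fit was tested on simulated data. Alternatives were DESeq2 1.42.0, limma 3.58.1 voom with quality weights, robust dispersions, other factors and filters, mitochondrial and ribosomal protein genes left out, thinned counts, each tumor left out and, chosen after seeing the data, an offset for gene length. The 10 genes and the lists, written from general knowledge, were chosen with earlier results of these data known. From each list up to 4 genes per direction were named, the largest changes past the threshold. They had a mean of at least 1 CPM in at least 1 group. Overlapping genes, neighbours of the members and the 5 genes most like *Cdkn1a*, from log2 CPM with a prior count of 2, were also named. *Kif11*, *Gm12606*, *Cdk4*, *Cdk6*, *E2f1*, *E2f4* and *Skp2* were named after their values were seen. Promoters came from RefSeq. Figures were drawn with matplotlib 3.10.9.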

Additional observations from a re-analysis of the deposited data

How the results depend on the processing

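No paired analysis was possible because the groups share no replicate numbers. Over 17 alternatives, between 3493 and 6815 genes and between 3 and 5 of the 10 genes passed the threshold. *Cdkn1b* (log2 fold change -1.74 to -1.36), *Rb1* (-1.04 to -0.79) and *Rbl1* (-2.04 to -1.54) kept their direction and call in all 17. *Cdkn2c* (0.46 to 0.65) lost its call only without RGS replicate 12, which left 0 genes of the set higher (between 0 and 1 over the fits without 1 tumor), and *Rbl2* (-0.69 to -0.41) gained one in 5. The log2 fold changes that turned sign were never called: *Cdkn1a* with library size only (-0.027), *Cdkn1c* thinned (0.12) and without RGS replicate 10 (0.21), *Cdkn2b* thinned (0.082), without vehicle replicate 9 (0.074) and without RGS replicate 12 (0.12), and *Cdkn2d* without RGS replicate 10 (0.048) and with the length offset (0.0055). Without 1 tumor, *Cdkn1c* ranged from -1.63 to 0.21, *Cdkn2b* from -0.74 to 0.12 and *Cdkn2d* from -0.25 to 0.048. The cause was not tested. Library size only moved the median of all genes by -0.14, and other settings by at most 0.04. Among lists, the count of lower genes was 11 to 15 for replication, 11 to 13 for mitosis, 9 to 14 for p53 targets and 1 to 4 for E2F factors, and 7 to 13 senescence genes were higher. Counts were lowest for *Cdkn1c*, *Cdkn2b* and *Cdkn2a*, at most 78, 44 and 0 in a tumor.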

Other observations

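*Cdkn1c* lies in a cluster of imprinted genes on chromosome 7, and several of its neighbours there had more counts than *Cdkn1c* itself. Of 7 tested neighbours 4 rose with RGS and none fell, beside 16.3% higher and 16.5% lower of all tested genes. Their median log2 fold change was 1.22 beside -0.048 over all tested genes. *Kcnq1ot1*, the noncoding RNA that silences the cluster on the paternal allele, rose by 1.80, from 6.52 ± 2.62 to 22.7 ± 5.72 CPM (SD, n = 3 each). Its adjusted p was 2.05e-04 (edgeR's quasi-likelihood test). *Tssc4* rose by 1.22, from 18.4 ± 3.51 to 43.0 ± 10.01 CPM, and *Cd81*, which encodes a tetraspanin of the cell surface, rose by 1.02, from 433 ± 14.1 to 876 ± 72.1 CPM. *Nap1l4*, a histone chaperone gene, rose by 0.57 and lost its call without RGS tumor 11. *Phlda2* (log2 fold change 1.57), *Slc22a18* (0.63) and *Kcnq1* (2.17) were at low levels and did not pass the threshold. *Kcnq1ot1* is transcribed opposite to *Kcnq1* within that gene and shares 121 exon bases with it in the annotation, and *Tssc4* shares 220 with *Trpm5*.

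Of 6 tested imprinted growth genes elsewhere, only *Igf2r*, the clearance receptor of IGF2, passed the threshold, beside 32.8% of all tested genes. It rose by 0.96 on the log2 scale, from 265 ± 55.8 to 514 ± 28.6 CPM (SD, n = 3 each), and *Igf2* had no count in any tumor.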
